A study of Homo sapiens with 9 samples.

Results

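The 9 genes described here are *YAP1*, *WWTR1*, *TEAD1*, *TEAD4*, *CTGF*, *CYR61*, *ANKRD1*, *AMOTL2* and *LATS2*. They were taken by symbol from a table of 26364 counted genes and were chosen with earlier results of these data known. *CTGF* and *CYR61* are listed under these older names and are now called *CCN2* and *CCN1*. All 9 were measured in all 9 libraries and passed the filter on low counts in every comparison. In short, 7 of the 9 were called higher in cells with the *LOC388942-ALK* (*LA*) fusion than in control cells, *CTGF* by the most. Of all tested genes 9.57% were called higher. Once length and GC trends were taken out of each library, 4 of the 9 were called higher, where 5.35% of all genes were. The size of the change in the target genes differed widely between the LA libraries. *ANKRD1*, among the 7, had a log2 fold change of -0.35 without LA replicate 2.

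YAP, encoded by *YAP1*, and TAZ, encoded by *WWTR1*, are transcriptional coactivators without a DNA-binding domain of their own, and they reach DNA through the TEAD proteins. The kinases of the Hippo pathway, with *LATS1* and *LATS2* at its end, phosphorylate YAP and TAZ and keep them out of the nucleus, so that cell contact, cell shape and matrix stiffness set their activity. In epithelial cells the readout most often used is the RNA of direct targets such as *CTGF*, *CYR61* and *ANKRD1*, while *AMOTL2* and *LATS2* are targets that also restrain YAP and TAZ.

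RNA was measured in A549, a human lung adenocarcinoma cell line with the label WT for the control group. The groups were control (2 libraries), LA (2 libraries, edited with sgALK and sgLOC388942), LA sgScr (3 libraries, the same edits and a scramble guide) and LA sgFOS (2 libraries, the same edits and a guide against *FOS*). The study grew all cells in RPMI medium with serum, introduced guides by lentivirus into cells expressing Cas9 and took LA cells as monoclonal strains by limiting dilution, so that a difference from control holds whatever the clone brought with it as well as the fusion, and these cannot be told apart. The number of clones and the *FOS* guide used for each LA sgFOS library are not given in the sources used here.

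The total count was between 14507228 and 20456341 per library. *FOS*, the gene aimed at in LA sgFOS cells, was at 68.4 and 74.1 CPM there (CPM, the counts of a gene per 1000000 counts of its library, with totals scaled by edgeR's TMM method), against 196 to 203 CPM in LA sgScr. In control *FOS* was at 10.8 and 9.15 CPM, and in LA at 335 CPM in replicate 1 and 92.8 CPM in replicate 2. *ALK* had 0 counts in both control libraries, 2 and 15 counts in LA, and at most 4 in the other libraries, so it checks the fusion only weakly. All 12 marker genes listed for A549, epithelial ones with *VIM* and *CDH2*, which are mesenchymal markers, and with metabolic genes that A549 expresses, were detected in every group, with a summed level of 31800 to 36700 CPM in control, 20500 to 28300 CPM in LA, 18900 to 19600 CPM in LA sgScr and 19600 to 20200 CPM in LA sgFOS. Of the markers of other cell types, *PTPRC*, *CD3E*, *DCN* and *PECAM1* were at or near 0 everywhere. The leukocyte list (4 genes, mostly *CD68*) summed to 25.1 to 34.6 CPM in control, 24.0 to 26.1 CPM in LA, 29.5 to 30.6 CPM in LA sgScr and 45.9 to 47.3 CPM in LA sgFOS, and the fibroblast list (5 genes, mostly *COL1A1*) to 7.18 to 18.3 CPM, while the endothelial list (3 genes) did not exceed 1.06 CPM in any library.

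The LA libraries stood apart from the other LA-derived libraries in RNA of the Y chromosome. All 5 Y-linked genes examined had 0 counts in both LA libraries, while their summed level was 303 to 469 CPM in control, 231 to 237 CPM in LA sgScr and 214 to 221 CPM in LA sgFOS. In a comparison of LA sgScr with LA the scramble guide and the cell population therefore cannot be told apart. LA against control uses the same LA libraries, so there the fusion edits and the cell population cannot be told apart either. The comparisons of LA sgScr with control and of LA sgFOS with LA sgScr do not use the LA libraries. Whether the groups were grown and sequenced together is not said by the labels.

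TEAD proteins bind DNA at a short motif, and matches to it in promoters are shown here. Whether they bear on any level or difference below was not tested. The motif GGAATG, or CATTCC on the other strand, was searched in RefSeq promoter windows on GRCh38.p14 that reach from 250 bases before an annotated start to 50 after it. Windows were given for 6 of the 9 genes, 8 windows in all, and not for *CYR61*, *TEAD1* or *TEAD4*. Those printed were chosen as windows of target genes with a motif before the start. The 250 bases before the start are printed for *CTGF* (chr6:131951373-131951622, minus strand), *ANKRD1* (chr10:90921088-90921337, minus strand) and the second start of *AMOTL2* (chr3:134374448-134374697, minus strand), with TEAD motifs in capitals and all other bases in lower case.
CTGF: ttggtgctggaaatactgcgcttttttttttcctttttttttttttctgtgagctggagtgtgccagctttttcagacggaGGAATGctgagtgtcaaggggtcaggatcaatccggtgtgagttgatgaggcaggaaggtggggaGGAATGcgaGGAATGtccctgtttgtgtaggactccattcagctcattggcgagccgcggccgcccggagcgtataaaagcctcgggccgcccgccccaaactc
ANKRD1: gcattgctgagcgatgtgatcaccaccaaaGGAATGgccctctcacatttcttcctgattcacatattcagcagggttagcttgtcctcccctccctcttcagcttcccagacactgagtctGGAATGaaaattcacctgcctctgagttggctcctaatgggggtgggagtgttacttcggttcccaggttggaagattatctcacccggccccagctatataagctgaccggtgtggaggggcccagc
AMOTL2: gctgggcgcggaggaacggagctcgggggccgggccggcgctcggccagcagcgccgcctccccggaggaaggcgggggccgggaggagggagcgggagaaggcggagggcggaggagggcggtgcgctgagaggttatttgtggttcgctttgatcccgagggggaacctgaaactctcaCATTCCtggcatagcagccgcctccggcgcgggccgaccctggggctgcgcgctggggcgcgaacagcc

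*CTGF* held 3 TEAD motifs, with first bases at -169, -104 and -95 from the start, the last 2 of them separated by only a few bases. *ANKRD1* held 2, at -220 and -128. *AMOTL2* held 1 at its second start, at -69, and 0 at its first. *YAP1* held 1, at -162, *LATS2* held 1, at 9 after the start, and both windows of *WWTR1* held 0. Among 35116 promoter windows of the same length, 14.0% held at least 1 TEAD motif, 1.37% at least 2 and 0.128% at least 3. The AP-1 motif, TGACTCA or TGAGTCA, was in 0 of the 8 windows and in 4.95% of all windows, and the CArG box, the motif of serum response factor, was in 0 of the 8 and in 1.29% of all. A match is a stretch of letters and not a site shown to be bound, and a window without a match says nothing about sites elsewhere.

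Both coactivator genes had a higher CPM in every LA library than in either control library. With length and GC trends taken out, the log2 fold change in LA was 0.24 for *YAP1* and 0.67 for *WWTR1*. In LA sgScr it was 0.56 and -0.17. *YAP1* (chromosome 11, 101981178 to 102104155 on GRCh37, plus strand) was at 39.0 and 78.9 CPM in control, 118 and 96.2 CPM in LA, 130 to 131 CPM in LA sgScr and 132 to 133 CPM in LA sgFOS. The control libraries differed from each other 2.02-fold, the edited cells lay above both, and LA sgScr and LA sgFOS were nearly the same. *WWTR1* (chromosome 3, 149235022 to 149454501, minus strand) was at 143 and 193 CPM in control, 386 and 426 CPM in LA, 221 to 231 CPM in LA sgScr and 243 CPM in both LA sgFOS libraries. Its highest level was in LA, and LA sgScr and LA sgFOS lay between LA and control. Exons of *WWTR1* overlap the antisense gene *WWTR1-AS1*, and the strand setting of the counting is not given in the sources used here, so reads of the antisense RNA may be among these counts.

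Of the TEAD genes, which encode the DNA-binding partners, *TEAD1* had a higher CPM in LA cells than in control and *TEAD4* a lower one. With length and GC trends taken out, the log2 fold change of *TEAD4* was -0.20 in LA and -0.11 in LA sgScr. Neither value passed the edgeR test (adjusted p = 0.612 and 0.403). *TEAD1* then stood at 1.05 and 0.65. *TEAD1* (chromosome 11, 12695968 to 12966284, plus strand) was at 99.6 and 141 CPM in control, 509 and 483 CPM in LA, 343 to 356 CPM in LA sgScr and 306 and 324 CPM in LA sgFOS. Its group means fell in the order LA, LA sgScr, LA sgFOS, control. *TEAD4* (chromosome 12, 3068496 to 3149842, plus strand) was at 84.0 and 53.6 CPM in control, 28.4 and 39.8 CPM in LA, 33.4 to 39.2 CPM in LA sgScr and 38.5 and 34.0 CPM in LA sgFOS. Every edited library lay below both control libraries, and the 3 edited groups overlapped. How many of all genes separate edited from control libraries in this way was not counted.

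*CTGF* and *CYR61* encode secreted matricellular proteins and are the targets most often used to read YAP activity. *CTGF* (chromosome 6, 132269316 to 132272512, minus strand) was at 11.5 and 38.2 CPM in control, 111 and 271 CPM in LA, 67.8 to 72.1 CPM in LA sgScr and 84.3 and 85.1 CPM in LA sgFOS. For *CTGF*, control replicate 2 was more than 3 times control replicate 1, and LA replicate 2 was more than 2 times LA replicate 1. Exons of *LINC01013* lie on the strand opposite to *CTGF*. *CYR61* (chromosome 1, 86046444 to 86050272, plus strand) was at 46.6 and 36.6 CPM in control, 97.3 and 281 CPM in LA, 91.9 to 93.9 CPM in LA sgScr and 98.5 and 100 CPM in LA sgFOS. LA replicate 1 was close to the libraries with a further guide, and LA replicate 2 was the library that stood high.

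*ANKRD1* encodes an ankyrin repeat protein found in the nucleus and at the sarcomere of muscle. *ANKRD1* (chromosome 10, 92671853 to 92680844, minus strand) was at 12.3 and 16.3 CPM in control, 11.2 and 110 CPM in LA, 32.3 CPM in all 3 LA sgScr libraries and 32.6 and 33.3 CPM in LA sgFOS. The LA libraries fell on either side of every other library, replicate 1 below both controls and replicate 2 above all. The raw counts behind that gap were 183 for LA replicate 1 and 1976 for LA replicate 2.

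*AMOTL2* encodes an angiomotin that binds YAP and TAZ at the junctions, and *LATS2* the kinase that phosphorylates them, so both are targets with a restraining role. *AMOTL2* (chromosome 3, 134074189 to 134094321, minus strand) was at 67.0 and 67.8 CPM in control, 172 and 409 CPM in LA, 170 to 173 CPM in LA sgScr and 160 and 163 CPM in LA sgFOS. The controls were almost equal, every edited library was above them, and LA replicate 2 was again the outstanding one. *LATS2* (chromosome 13, 21547175 to 21635725, minus strand) was at 12.6 and 18.7 CPM in control, 31.7 and 113 CPM in LA, 34.2 to 36.1 CPM in LA sgScr and 35.4 to 39.1 CPM in LA sgFOS. Apart from LA replicate 2, its edited libraries lay within a narrow band above control.

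Set against transcript length, the order of the genes was not the same in the groups. Over all genes, fold changes against control followed length (Spearman's rho 0.579 in LA and 0.595 in LA sgScr). They also followed GC content (rho -0.309 and -0.383). Division by length leaves such trends between libraries in place, and their part in the order was not tested. With both trends corrected, the log2 fold change of *TEAD4* against control was -0.20 in LA and -0.11 in LA sgScr. In control, *TEAD4* led with 40.3 ± 12.6 CPM per kilobase (SD, n = 2), ahead of *WWTR1* at 33.4 ± 7.05, which is within that spread, and *LATS2* came last at 2.82 ± 0.778. Below *CYR61* at 18.3 ± 3.11, the control levels of *AMOTL2* (13.8 ± 0.105), *TEAD1* (12.8 ± 3.12), *YAP1* (10.9 ± 5.22), *CTGF* (10.6 ± 8.07) and *ANKRD1* (8.0 ± 1.61) followed each other with neighbours within their spread. In LA, *CYR61* (83.0 ± 57.0 CPM per kilobase), *CTGF* (81.8 ± 48.2) and *WWTR1* (80.6 ± 5.73) had nearly the same mean, and only *WWTR1* had close replicates. In LA sgScr, with n = 3, *WWTR1* at 44.8 ± 1.02 CPM per kilobase lay above *CYR61* at 40.7 ± 0.471, followed by *TEAD1* at 37.1 ± 0.675, *AMOTL2* at 35.3 ± 0.307 and *CTGF* at 30.0 ± 0.955, neighbours that differed by more than their spread. In LA sgFOS, *WWTR1* at 48.2 and *CYR61* at 43.6 CPM per kilobase again led, with *CTGF* at 36.2 now above *TEAD1* at 33.5 and *AMOTL2* at 33.2. *LATS2* was last in every group, at 6.37 CPM per kilobase in LA sgScr and 6.71 in LA sgFOS. In these bulk libraries fewer cells expressing a gene and less RNA per cell cannot be told apart.

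The first comparison, LA against control, asks what the edited cells express differently. With edgeR's quasi-likelihood test and Benjamini-Hochberg adjustment over 14425 genes, 7 of the 9 genes were higher at an adjusted p under 0.05, where 9.57% of all tested genes were, and 0 were lower, where 9.94% of all were. The median log2 fold change was 2.04 for the 9 genes and 0.04 for all genes tested. DESeq2 called 6 higher and 1 lower, where 11.1% and 12.7% of all genes were. Without adjustment 7 were higher and 1 was lower at p under 0.05 by edgeR, where 34.5% of all genes passed in either direction. The labels do not say that replicates came from separate cultures, so the p-values measure the spread between these libraries, which may be technical.

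The targets rose. *CTGF* had the largest log2 fold change of the 9 genes, 2.90 ± 0.53 (SE, edgeR adjusted p = 0.00135). The values were 2.15 ± 0.46 for *CYR61* (adjusted p = 0.00319), 2.08 ± 0.45 for *AMOTL2* (adjusted p = 0.00318), 2.17 ± 0.50 for *LATS2* (adjusted p = 0.00488) and 2.04 ± 0.62 for *ANKRD1* (adjusted p = 0.0231). *ANKRD1* passed although its groups overlapped, and its sign rested on LA replicate 2. Leaving that library out gave -0.35 for *ANKRD1* and kept the other 4 above 0, between 1.02 for *LATS2* and 2.16 for *CTGF*.

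Of the coactivators and TEAD genes, *TEAD1* rose by 2.01 ± 0.42 on the log2 scale (adjusted p = 0.00283) and *WWTR1* by 1.24 ± 0.41 (adjusted p = 0.0358). *YAP1*, at 0.83 ± 0.42 (edgeR adjusted p = 0.165), and *TEAD4*, at -1.04 ± 0.41 (adjusted p = 0.0761), did not pass. Leaving out a library leaves 1 library in its group, so the fold changes alone are given here. Without LA replicate 2, *YAP1* stood at 0.99, *WWTR1* at 1.20, *TEAD1* at 2.08 and *TEAD4* at -1.27. Without control replicate 1, the values in that order were 0.37, 0.997, 1.74 and -0.73. The target genes then lay between 1.81 (*ANKRD1*) and 2.29 (*CYR61*). Without LA replicate 1, *YAP1* stood at 0.64, *WWTR1* at 1.28, *TEAD1* at 1.94 and *TEAD4* at -0.84. The target genes then lay between 2.54 (*AMOTL2*) and 3.37 (*CTGF*).

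Fold changes between LA and control followed transcript length across all genes (Spearman's rho 0.579) and GC content (rho -0.309). *TEAD1*, the longest of the 9 transcripts at 9417 bases, was among those that rose, and *TEAD4*, the shortest at 1710 bases and with the highest GC content, 60.4%, was the gene below 0. With each library corrected for both trends, 4 of the 9 were higher, where 5.35% of all tested genes were, and 0 were lower, where 4.28% were. These 4 were *CTGF* at 3.15 (edgeR adjusted p = 0.0118), *CYR61* at 2.43 (adjusted p = 0.0104), *AMOTL2* at 1.70 (adjusted p = 0.0154) and *TEAD1* at 1.05 (adjusted p = 0.0263). *ANKRD1* stood at 2.57 (adjusted p = 0.0718) and *LATS2* at 1.59 (adjusted p = 0.0601). The values of *WWTR1* (0.67), *YAP1* (0.24) and *TEAD4* (-0.20) were nearer to 0 than without the correction.

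**Figure D1:**
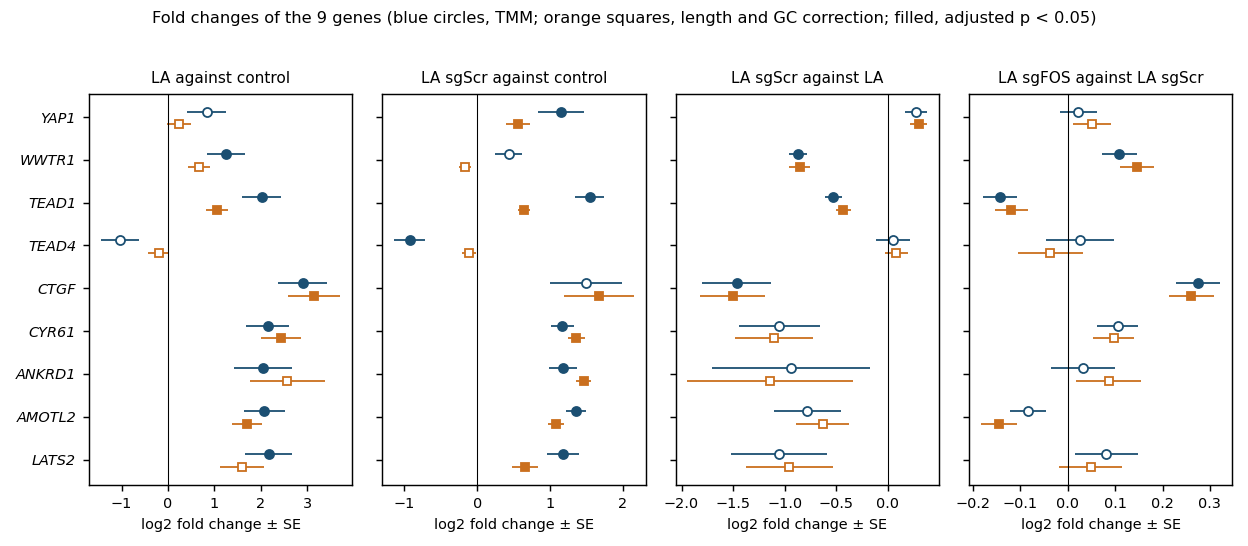
Log2 fold change ± SE of each of the 9 genes in the 4 comparisons, with TMM scaling (blue circles) and with the length and GC correction (orange squares); filled symbols have an adjusted p under 0.05, and each panel has its own x axis. *CTGF* is the highest circle in LA against control (2.90), and *TEAD1*, *WWTR1* and *TEAD4* move toward 0 with the correction in both comparisons with control.

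The second comparison, LA sgScr against control, uses the same 2 control libraries as the first, so it is not separate evidence on control. Here 6 of the 9 genes were called higher by edgeR, where 19.8% of 14482 tested genes were, and 1 was lower, where 21.7% of all were. The median log2 fold change was 1.18 for the 9 genes and 0.02 for all. *TEAD1* rose by 1.54 ± 0.20 (adjusted p = 0.00639), *AMOTL2* by 1.36 ± 0.13 (adjusted p = 0.00436) and *CYR61* by 1.17 ± 0.16 (adjusted p = 0.00663). *ANKRD1* and *LATS2* rose by nearly the same amount, each by 1.18 with an SE of 0.19 and 0.22, and *YAP1* by 1.15 ± 0.31 (edgeR adjusted p = 0.0313). *TEAD4* fell by 0.93 on the log2 scale (SE 0.21, adjusted p = 0.0196). *CTGF*, with its unequal controls, had the second highest estimate, 1.50 ± 0.49, and an adjusted p of 0.052. Its estimate was 0.88 without control replicate 1 and 2.62 without control replicate 2, and that of *YAP1* was 0.73 and 1.76. *WWTR1* was at 0.43 ± 0.18 (edgeR adjusted p = 0.101).

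Fold changes of all genes followed length here too (Spearman's rho 0.595). After the correction 7 of the 9 were called higher, where 19.6% of all tested genes were, and 0 lower, where 17.8% were. *TEAD4* stood at -0.11 (edgeR adjusted p = 0.403) and *WWTR1* changed sign, to -0.17 (adjusted p = 0.154). *CTGF* (1.67, adjusted p = 0.0375), *ANKRD1* (1.46, adjusted p = 0.00134), *CYR61* (1.36, adjusted p = 0.00152) and *AMOTL2* (1.08, adjusted p = 0.00239) were the highest. Leaving out any LA sgScr library left 0 of the 9 called by edgeR, with 7 or 8 at an unadjusted p under 0.05, but these fits called at most 0.826% of all genes higher and 0.0918% lower, with 37.8% to 38.6% of all genes at an unadjusted p under 0.05. The fold changes of the 9 then differed little from those with all libraries. The spread was 0.213 as a biological coefficient of variation in this comparison, and with the exception of *AMOTL2* the control libraries of these genes lay further apart, relative to their level, than the LA sgScr libraries.

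The third comparison sets LA sgScr against LA, cells that carry the same fusion edits by their labels. By edgeR, 0 of the 9 genes were higher, where 10.6% of 14521 tested genes were, and 3 were lower, where 12.3% were. DESeq2 called 0 higher and 5 lower, where 12.8% and 14.4% of all genes were. Without adjustment edgeR had 1 higher and 4 lower at p under 0.05, where 39.7% of all genes passed in either direction. *WWTR1* fell by 0.87 on the log2 scale (SE 0.09, adjusted p = 0.00309), *TEAD1* by 0.53 (SE 0.08, adjusted p = 0.00916) and *CTGF* by 1.47 (SE 0.34, adjusted p = 0.029). *CYR61* at -1.05 ± 0.39, *LATS2* at -1.06 ± 0.47, *ANKRD1* at -0.94 ± 0.77 and *AMOTL2* at -0.78 ± 0.33 did not pass. *YAP1* (0.27 ± 0.11) and *TEAD4* (0.05 ± 0.17) did not pass either. The median was -0.87 for the 9 genes and -0.02 for all genes.

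For *ANKRD1*, *LATS2*, *CYR61* and *AMOTL2* this comparison turned on which LA library was used. Without LA replicate 1, *ANKRD1* stood at -1.78, *LATS2* at -1.68, *CYR61* at -1.60 and *AMOTL2* at -1.25, and 7 of the 9 genes were called lower, where 32.7% of all tested genes were. Without LA replicate 2, *ANKRD1* stood at 1.50, *LATS2* at 0.14, *CYR61* at -0.09 and *AMOTL2* at -0.02, and 3 were called lower and 3 higher, where 25.9% and 25.2% of all genes were, so these counts are near the share of all genes. *CTGF*, the target called here, kept its sign with either LA library, at -1.95 without replicate 1 and -0.69 without replicate 2. *WWTR1* (-0.92 and -0.79) and *TEAD1* (-0.47 and -0.56) kept their sign and size with either LA library. Without any of the LA sgScr libraries in turn, *WWTR1* alone of the 9 was called lower, in fits that called 1.51% to 2.16% of all genes lower.

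The fourth comparison, LA sgFOS against LA sgScr, asks what follows editing of *FOS*, which fell by 1.48 on the log2 scale (SE 0.04, adjusted p = 2e-25). Among the 9 genes the differences were small. By edgeR, 2 were higher, where 12.2% of 14196 tested genes were, and 1 was lower, where 10.5% were, with a median of 0.03 for the 9 genes and -0.001 for all. *CTGF* rose by 0.28 ± 0.05 (adjusted p = 2.4e-05), *WWTR1* rose by 0.11 ± 0.04 (adjusted p = 0.0254) and *TEAD1* fell by 0.14 (SE 0.04, adjusted p = 0.00271). *CYR61* (0.11 ± 0.04), *LATS2* (0.08 ± 0.07), *ANKRD1* (0.03 ± 0.07), *TEAD4* (0.03 ± 0.07), *YAP1* (0.02 ± 0.04) and *AMOTL2* (-0.08 ± 0.04) did not pass. The spread in this comparison was 0.0296 as a biological coefficient of variation, against 0.329 in LA against control. Since the labels do not say that replicates came from separate cultures, so narrow a spread may be technical. *CTGF* was called without any of the 5 libraries in turn. *TEAD1* lost its call without LA sgFOS replicate 1 (-0.105), and *WWTR1* without LA sgFOS replicate 1 or 2 or LA sgScr replicate 2 (0.11 in each case). None of the 9 reached a log2 fold change of 0.5. *CD68*, the main gene of the leukocyte list, rose by 0.65 ± 0.06 in the same comparison (edgeR adjusted p = 2.89e-10). Of the rest of that list, *PTPRC* and *CD3E* had 0 counts in both groups and *CD79A* had 6 to 13 per library.

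The LA replicates differed widely in the target genes, all of which were higher in replicate 2. Over 11900 genes that averaged 50 counts or more, the difference in log2(CPM + 1) of LA replicate 2 minus replicate 1 had a median of -0.005 and lay between -0.72 and 0.87 for the 5th to 95th percentile. *ANKRD1* differed by 3.19 (9.11-fold) and ranked 3 among these genes. *LATS2* differed by 1.80 (3.48-fold, rank 51), *CYR61* by 1.52 (2.87-fold, rank 107), *CTGF* by 1.27 (2.42-fold, rank 210) and *AMOTL2* by 1.24 (2.37-fold, rank 223). The coactivators and TEAD genes lay inside the percentile range, with *TEAD4* at 0.47, *WWTR1* at 0.15, *TEAD1* at -0.08 and *YAP1* at -0.29. With 1 library on each side these are values of those libraries and carry no test.

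The gap in the LA replicates moved with other measures. *FOS* went the other way, by -1.84, and over all genes the gap followed GC content (Spearman's rho 0.484) but not length (rho -0.03). With the correction the gaps were 3.54 for *ANKRD1*, 1.67 for *LATS2*, 1.50 for *CYR61*, 1.21 for *CTGF* and 0.98 for *AMOTL2*, so they were about as large. What part GC content has in them was otherwise not tested. Of the 17 other target genes described below, 14 were higher in LA replicate 2 and 3 lower, with a median of 0.60, and 2 lay above the 95th percentile. These were *F3*, which encodes tissue factor, at 1.68 (rank 75) and *NUAK2*, a kinase gene, at 1.10 (rank 303), named after their values were seen.

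The control replicates did not show the same pattern. *CTGF* was 3.13-fold higher in control replicate 2, a log2 difference of 1.65 and rank 74 of the 11900 genes. *YAP1* differed by 0.997 and *LATS2* by 0.54 in the same direction, *AMOTL2* by 0.02, *CYR61* by -0.34 and *TEAD4* by -0.64. The control difference of all genes was broader than that of LA (5th to 95th percentile -1.15 to 1.12) and followed GC content (rho -0.703) and length (rho 0.361). After the correction *CTGF* still differed by 1.83, and *YAP1* by 0.54.

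Across the 9 libraries the targets with a restraining role and *CYR61* had the most similar patterns. Likeness was measured as the root mean square difference of log2 CPM after each gene was centred on its own mean, over 11899 other genes, and it describes libraries that share depth, GC and length trends. The gene nearest to *CYR61* was *AMOTL2* (0.141), and the gene nearest to *LATS2* was also *AMOTL2* (0.200). For *AMOTL2* the nearest were *SMCR8* (0.125), *ZNF236* (0.129) and *SETBP1* (0.138), with *CYR61* at rank 4 and *LATS2* at rank 8. For *ANKRD1* the nearest were *CHAC1* (0.348), *DUSP10* (0.363) and *ANK1* (0.397), and *LATS2* ranked 4 (0.413). *CTGF* had *KITLG* (0.299), *SLC30A1* (0.300) and *ARHGAP29* (0.352) nearest, and *LATS2* ranked 44 as its closest member of the 9. The values of the nearest gene were lower for the upstream members, 0.0354 for *WWTR1* (*DFNA5*), 0.0508 for *TEAD4* (*ILVBL*), 0.0514 for *YAP1* (*PREPL*) and 0.0864 for *TEAD1* (*ARFGEF2*), whose levels varied less.

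Beyond the 9 genes, further genes of the pathway were listed by role, with earlier results of these data known. The core kinases and adaptors comprise the MST kinases, other upstream kinases, *LATS1* and their adaptors. The share of all tested genes with such an edgeR call stands in parentheses behind a count. By DESeq2, LA against control had 11.1% of all genes higher and 12.7% lower, and 34.5% passed edgeR without adjustment. These shares were 21.8%, 23.9% and 52.9% for LA sgScr against control. For LA sgScr against LA they were 12.8%, 14.4% and 39.7%, and for LA sgFOS against LA sgScr 7.59%, 6.19% and 33.9%. In LA against control 4 of 9 were higher (9.57% of all genes) and 0 lower (9.94%) by edgeR, against 5 and 0 without adjustment and 4 and 0 by DESeq2, with a median of 1.16. *TAOK1*, a kinase that activates the MST kinases, rose by 2.17 ± 0.46 (adjusted p = 0.00278), the LATS adaptor *MOB1A* by 1.42 ± 0.43 (adjusted p = 0.0218) and *STK4*, which encodes MST1, by 1.41 ± 0.41 (adjusted p = 0.0179). With the length and GC correction 2 of 9 were higher (5.35% of all genes) and the median was 0.52. Against control, 6 were higher (19.8% of all genes) and 0 lower (21.7%) in LA sgScr, against 7 and 0 without adjustment and by DESeq2, led by *TAOK1* at 2.39, *STK4* at 1.69 and *MOB1A* at 1.51. The correction left 5 higher (19.6% of all genes) and moved the median from 1.34 to 0.50. Between LA sgScr and LA 0 passed in either direction by edgeR (10.6% of all genes were higher and 12.3% lower), without adjustment or by DESeq2. In LA sgFOS against LA sgScr *MAP4K4*, a kinase gene, rose by 0.16 and *TAOK1* fell by 0.11, as 12.2% of all genes were called higher and 10.5% lower.

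The upstream and junction regulators carry signals of contact and polarity to the kinases, and 9 of 10 were tested, *AMOT* having too few counts. In LA against control 5 were higher (9.57% of all genes) and 0 lower (9.94%), as also without adjustment and by DESeq2, with a median of 1.39. *FAT4*, an atypical cadherin gene, rose by 2.86 ± 0.53 (edgeR adjusted p = 0.00144), *WWC2* of the KIBRA family by 2.23 ± 0.49 and the FERM domain gene *FRMD6* by 1.66 ± 0.48. With the correction 3 were higher (5.35% of all genes) and 1 lower (4.28%) and the median was 0.70. Against control, LA sgScr had 5 higher (19.8% of all genes), led by *FAT4* at 3.15, *WWC2* at 2.24 and *AMOTL1* at 1.09, and 1 lower (21.7%), *RASSF1* at -1.25, a gene whose product binds MST kinases. The correction left 3 higher (19.6% of all genes) and 1 lower (17.8%). It moved the median from 0.98 to 0.32 and put *AMOTL1* at 0.32 (edgeR adjusted p = 0.12). Between LA sgScr and LA *LIMD1* rose by 0.67, while *AJUBA*, of the same LIM domain family, fell by 1.05 and *WWC1* fell by 0.46. In LA sgFOS against LA sgScr 4 were higher (12.2% of all genes), led by *NF2*, which encodes merlin, at 0.33 ± 0.05 (adjusted p = 1.01e-05), *FRMD6* at 0.31 and *AJUBA* at 0.22, and *LIMD1* fell by 0.19.

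Of the other nuclear partners, 4 of 6 were tested, since *VGLL1* and *VGLL2* had too few counts. In LA against control 2 of the 4 were higher (9.57% of all genes) and 0 lower (9.94%), as also without adjustment and by DESeq2, with a median of 0.90. These were *VGLL3*, at 1.73 ± 0.47, and *VGLL4*, whose product competes with YAP for TEAD proteins, at 1.56 ± 0.46. With the correction 1 was higher (5.35% of all genes), and *VGLL3* stood at 0.75 (edgeR adjusted p = 0.122). *VGLL3* and *VGLL4* were also the 2 called in LA sgScr against control, at 1.55 and 1.79, with 0 lower (2 and 0 without adjustment and by DESeq2), and there the correction put *VGLL3* at 0.61 (adjusted p = 0.0516). *TEAD2* rose by 0.48 in LA sgScr against LA and *TEAD3* was called in none of the 4 comparisons by edgeR. In LA sgFOS against LA sgScr 0 of 4 passed, with 1 higher without adjustment and 0 by DESeq2.

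The 17 other target genes are listed as targets of YAP, TAZ and TEAD from general knowledge, with earlier results of these data known. Their counts are therefore description and not separate evidence. In LA against control 7 were higher (9.57% of all genes) and 0 lower (9.94%) by edgeR, with a median of 1.08 (10 higher and 1 lower without adjustment, 8 and 0 by DESeq2). *DOCK5*, which encodes an exchange factor for small GTPases, rose by 2.60 ± 0.44 (adjusted p = 0.000714), the growth factor gene *TGFB2* by 2.06 ± 0.45 and *MYOF*, a membrane protein gene, by 1.91 ± 0.45. With the correction 5 were higher (5.35% of all genes) and 1 lower (4.28%) and the median was 0.73. For LA sgScr against control 10 were higher (19.8% of all genes) and 0 lower (21.7%), against 11 and 0 without adjustment and 9 and 0 by DESeq2, led by *TGFB2* at 1.87, *MYOF* at 1.85 and *DOCK5* at 1.60. Between LA sgScr and LA 3 were higher (10.6% of all genes), the RNA-binding protein gene *RBMS3* at 2.17, *IGFBP3* at 1.03 and the receptor gene *AXL* at 0.56, and 5 were lower (12.3%), led by *DOCK5* at -1.06, *CCDC80* at -0.997 and *FOXF2* at -0.75.

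In LA sgFOS against LA sgScr 8 of the 17 were higher (12.2% of all genes) and 3 lower (10.5%), with a median of 0.14. *GADD45A*, a stress response gene, rose by 0.70 ± 0.08 (edgeR adjusted p = 3.87e-09), the matrix gene *CCDC80* by 0.54 ± 0.05 (adjusted p = 4.97e-10) and *FJX1* by 0.22 ± 0.07. *RBMS3* fell by 0.65 and *IGFBP3*, which encodes a binding protein for insulin-like growth factors, fell by 0.44 (SE 0.03, adjusted p = 1.28e-12), while *CRIM1* fell by 0.10. *GADD45A*, *CCDC80*, *RBMS3* and *IGFBP3* thus had log2 fold changes further from 0 than any of the 9 genes in this comparison.

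**Figure D2:**
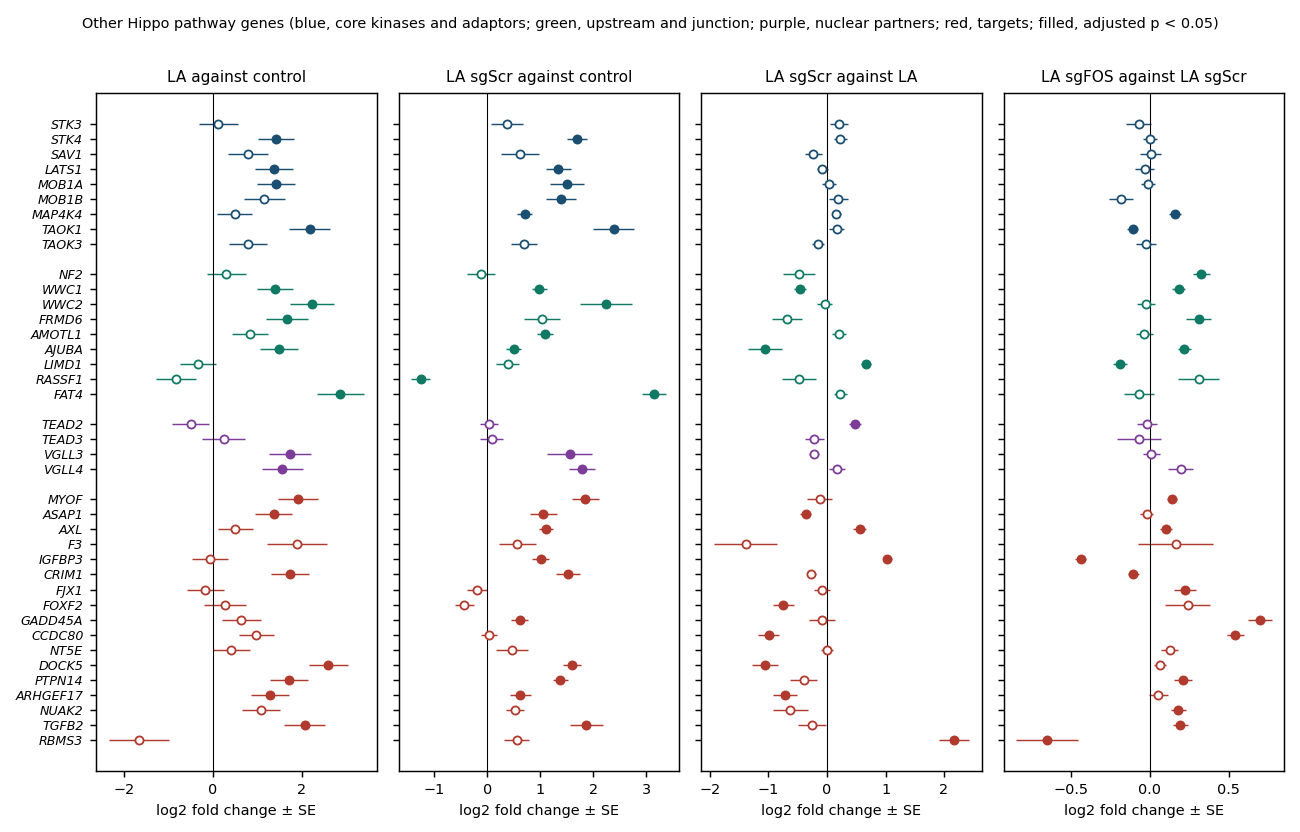
Log2 fold change ± SE of the tested pathway genes other than the 9, by role (blue, core kinases and adaptors; green, upstream and junction regulators; purple, nuclear partners; red, targets), in the 4 comparisons; filled symbols have an adjusted p under 0.05. *FAT4* and *TAOK1* lie far to the right in both comparisons with control, and *RBMS3* changes side between panels.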

How the data were processed

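The authors sequenced stranded poly(A) RNA libraries of A549 cells in paired-end mode and aligned reads to hg19. The submitters' processing notes name STAR 2.7.10b and DESeq2 1.26.0. The authors deposited raw counts per gene without normalization, and the counting program, annotation and strand setting are not given in the sources used here. Of 26364 names, 28 look like dates and were kept but not named.

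Counts were tested in R 4.3.3 with edgeR 4.0.16 (TMM, filterByExpr, quasi-likelihood test, two-sided, Benjamini-Hochberg over all tested genes) on only the libraries compared, with DESeq2 1.42.0 as an alternative. Lengths and GC content came from GENCODE on GRCh37 (23831 names matched), and the correction used a loess curve of span 0.5 per library as an offset. Levels are CPM after TMM over 9 libraries. Totals were 14507228 to 20456341 counts per library, and the precision they give covers counting error only. Tables and figures used Python 3.11.15. Alternatives were other scalings, other filters, a fit of all 9 libraries, the replicate number as a block, and each library left out. Scripts were tested on simulated data.

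The 9 genes and the pathway lists, the latter from general knowledge, were chosen with earlier results of these data known. Named pathway genes are the called genes with up to 3 of the largest changes in each direction of a list, and *FOS* and *ALK* as targeted genes. *F3*, *NUAK2* and *TEAD3* were named after their values were seen. All per-sample columns were used.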

Additional observations from a re-analysis of the deposited data

How the results depend on the processing

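Leaving out each library in turn gave 0 to 7 of the 9 genes called higher in LA against control and 0 to 1 lower, with 1.25% to 15.8% of all genes called higher, and the log2 fold change of *ANKRD1* ranged from -0.35 to 2.89. For LA sgScr against control the ranges were 0 to 8 higher and 0 to 1 lower, but 0.0209% to 40.5% of all genes were then called higher and 0% to 37.8% lower. For LA sgScr against LA they were 0 to 3 higher and 1 to 7 lower (1.18% to 32.4% and 1.51% to 32.7% of all genes), with *ANKRD1* from -1.78 to 1.50, *LATS2* from -1.68 to 0.14 and *TEAD4* from -0.16 to 0.31. In LA sgFOS against LA sgScr they were 1 to 2 higher and 0 to 1 lower, with *TEAD4* from -0.069 to 0.113. Of all genes, the fits of LA sgFOS against LA sgScr called 6.95% to 13.1% higher and 6.08% to 11.9% lower. Those of LA against control called 0.46% to 17.8% of all genes lower. An arm left with 1 library was assumed to vary like the other group, so the calls of such a fit rest on that assumption.

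In LA against control 1 gene, *TEAD4*, was called lower by DESeq2, a single fit of all 9 libraries and the study's threshold. That threshold is an unadjusted p under 0.05 with an absolute log2 fold change over 0.5. Of all genes 12.7%, 21.9% and 17.1% were called lower in that order. The length and GC correction called 4 higher, where 5.35% of all genes were. In LA sgScr against control the correction called 0 lower, where 17.8% of all genes were, and turned *WWTR1* to -0.17. In LA sgScr against LA DESeq2 called 5 lower (14.4% of all genes) and the single fit 1 (5.84%). The correction called 1 higher (14.3%), and library size alone gave *TEAD4* -0.002. In LA sgFOS against LA sgScr DESeq2 called 1 higher (7.59% of all genes). The single fit called 0 higher and 0 lower, as did the study's threshold (3.73% and 2.03% of all genes). The correction called 2 lower (10.1%), with *TEAD4* at -0.037. Over all genes the single fit called 0 here, with 444 at an unadjusted p under 0.05, and its spread is that of all 4 groups. The cause of the other changes was not tested. Library size alone moved the median of all genes by 0.28 in LA against control and by 0.18 in LA sgScr against control.

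Deviations of same-numbered replicates had correlations from -0.264, in LA against control, to 0.0458. The labels tie such replicates by number alone, and what the negative value reflects was not tested. With the replicate number as a block, LA against control called 5 of the 9 higher, where 5.48% of all genes were. *WWTR1* (edgeR adjusted p = 0.0992) and *ANKRD1* (1.31, adjusted p = 0.159) lost their calls. The block left 0 of the 9 lower in LA sgScr against control (10.7% of all genes) and gave *TEAD4* -0.001 in LA sgScr against LA. It called 1 of the 9 higher in LA sgFOS against LA sgScr (11.8% of all genes). With the block and the length and GC correction together, LA sgScr against control called 0 lower (10.4% of all genes) and *WWTR1* stood at -0.16. A crossed pairing in LA against control, added after seeing the data, called 1 of the 9 lower. Among all genes it called 1977 higher (13.7%) and 1901 lower (13.2%).

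Each group has 2 or 3 libraries and spread differs between groups, so a test against the widely scattered controls is less sensitive than LA sgFOS against LA sgScr. The lowest count of any of the 9 genes in any library was 178.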
